A study of Mus musculus with 3 samples.

Results

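The Gimap genes encode a family of GTPases of immunity-associated proteins, which are small guanine nucleotide-binding proteins found mainly in lymphocytes. The 8 genes examined, Gimap1, Gimap3, Gimap4, Gimap5, Gimap6, Gimap7, Gimap8 and Gimap9, were taken by symbol from the GENCODE M21 annotation, and all 8 were found among 55536 annotated genes, of which 22028 code for protein. The data were polyA-selected RNA-seq libraries of activated regulatory T cells, the CD4 T cells that hold immune responses in check through the transcription factor Foxp3. All 3 libraries were technical replicates of 1 biosample from 1 male mouse, aged 9 weeks. The labels name no strain, no agent of activation and no sorting scheme, and they hold no second condition. Every SD below is therefore a technical spread over 3 libraries, and differences are between genes or transcripts of the same cells.

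GIMAP proteins carry a GTP-binding domain called AIG1, and several are anchored to intracellular membranes. The family is known for its part in lymphocyte survival. Gimap5 is needed for the persistence of peripheral T cells, Gimap1 for the maintenance of mature T and B cells, and Gimap6 binds a protein of the ATG8 family used in autophagy. Gimap4 has been linked to the execution of T cell death, and Gimap3 is a close relative of Gimap5.

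The feature that the members share in sequence is the P-loop, the stretch of a GTPase that holds the phosphates of the nucleotide. A search of the annotated coding sequences for glycine, any 4 residues, glycine, lysine and then serine or threonine found it in the leading coding transcript of all 8 genes. The 24 bases that encode it are shown 5′ to 3′ on the coding strand, with mm10 coordinates and with capitals for the codons of the first glycine and of the last 3 residues. They are shown because they are the nucleotide-binding signature of the family.
Gimap4 (chr6:48690421-48690444, plus strand): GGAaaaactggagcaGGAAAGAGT
Gimap3 (chr6:48765887-48765910, minus strand): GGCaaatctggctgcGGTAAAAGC
Gimap5 (chr6:48752594-48752617, plus strand): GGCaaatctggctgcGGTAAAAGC
Gimap6 (chr6:48702750-48702773, minus strand): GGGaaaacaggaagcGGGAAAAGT
Gimap7 (chr6:48723524-48723547, plus strand): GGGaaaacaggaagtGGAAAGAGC
Gimap9 (chr6:48677523-48677546, plus strand): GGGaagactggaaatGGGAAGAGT
Gimap1 (chr6:48742552-48742575, plus strand): GGCaggactgggaccGGCAAGAGT
Gimap8 P-loop 1 (chr6:48650256-48650279, plus strand): GGGaaacagggcgcaGGCAAAAGT
Gimap8 P-loop 2 (chr6:48656119-48656142, plus strand): GGGaagcgtggtgttGGGAAAAGT
Gimap8 P-loop 3 (chr6:48658746-48658769, plus strand): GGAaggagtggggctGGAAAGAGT
The stretches of Gimap3 and Gimap5 were identical in all 24 bases. The next closest pair, Gimap6 and Gimap7, had 20 of 24 bases in common. Over whole coding sequences of the leading transcripts, of 349 codons for Gimap8, identical bases made up 89.6% of the shorter sequence for Gimap3 and Gimap5. They made up 65.5% for Gimap7 and Gimap9, the next pair, and the median of the 28 pairs was 56.1%. Gimap8 stood apart because its longest reading frame, of 688 codons, held 3 P-loops, at codons 55, 291 and 482. The longest frames of the other members had 291 to 328 codons.

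All members were abundant. Levels are given in TPM, a scale of relative transcript number that corrects for transcript length and library size. Each of the 8 exceeded 100 TPM in all libraries, a mark passed by 7.74% of protein-coding genes. All 8 were also detected, with at least 1 TPM in every library, as were 47.3% of protein-coding genes. Together they summed to 5052, 4888 and 4943 TPM in libraries 1, 2 and 3, or 0.511% ± 0.00138 of the expected counts of annotated genes (SD, n = 3). The median member stood at 447 ± 3.57 TPM, against 29.2 ± 0.701 for the median detected protein-coding gene.

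Gimap4 and Gimap3 led the family. Gimap4 (ENSMUSG00000054435.16, mm10 chromosome 6, 48684549 to 48692060, plus strand) had 1537, 1492 and 1507 TPM in libraries 1, 2 and 3, a mean of 1512 ± 22.96, which placed it 54th of 22028 protein-coding genes. Il2rg, the common gamma chain of interleukin receptors, was the gene next above it at 1520 ± 29.6 TPM, and the ribosomal protein gene Rps14 came next below at 1495 ± 5.63. Gimap3 (ENSMUSG00000039264.9, 48764464 to 48770851, minus strand) had 1362, 1298 and 1348 TPM, a mean of 1336 ± 33.6 and rank 61. The libraries of the 2 genes did not overlap, and each gene was lowest in library 2. Together they held 57.4% ± 0.337 of the summed TPM of the family.

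**Figure D1:**
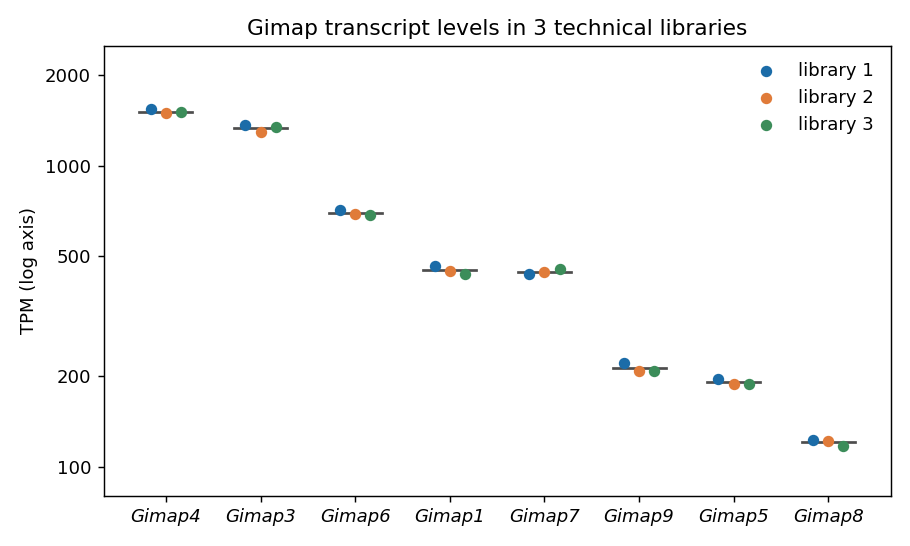
TPM of each Gimap gene on a log axis, with a point for each of 3 technical libraries and a bar at their mean. The points of a gene lie close together, from about 1500 TPM for Gimap4 to about 120 TPM for Gimap8, and only Gimap1 and Gimap7 overlap.

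Gimap6, Gimap1 and Gimap7 formed the middle of the family. Gimap6 (ENSMUSG00000047867.11, 48701582 to 48708225, minus strand) had 713, 691 and 685 TPM, a mean of 696 ± 14.6. Gimap1 (ENSMUSG00000090019.5, 48739054 to 48743795, plus strand) had 464, 446 and 437 TPM, a mean of 449 ± 13.5. Gimap7 (ENSMUSG00000043931.10, 48718621 to 48724636, plus strand) had 438, 442 and 453 TPM, a mean of 444 ± 7.70. Gimap6 was above both others in every library. Gimap1 and Gimap7 overlapped, Gimap1 being higher in libraries 1 and 2 and lower in library 3. Their ranks among protein-coding genes were 154, 278 and 281.

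Gimap9, Gimap5 and Gimap8 were the lowest members, though still among the upper part of detected genes. Gimap9 (ENSMUSG00000051124.6, 48676129 to 48679114, plus strand) had 221, 208 and 208 TPM, a mean of 212 ± 7.04. Gimap5 (ENSMUSG00000043505.8, 48746197 to 48754210, plus strand) had 196, 188 and 188 TPM, a mean of 191 ± 4.58. Gimap8 (ENSMUSG00000064262.7, 48647234 to 48660875, plus strand) had 123, 122 and 117 TPM, a mean of 121 ± 2.96. Within each library the order was Gimap9, Gimap5, Gimap8. Gimap8, the lowest, still exceeded 86.0% of detected protein-coding genes, and its neighbours in level were Ankrd12 (121 ± 9.81 TPM) and the proteasome subunit gene Psmd6 (121 ± 8.52 TPM).

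**Figure D2:**
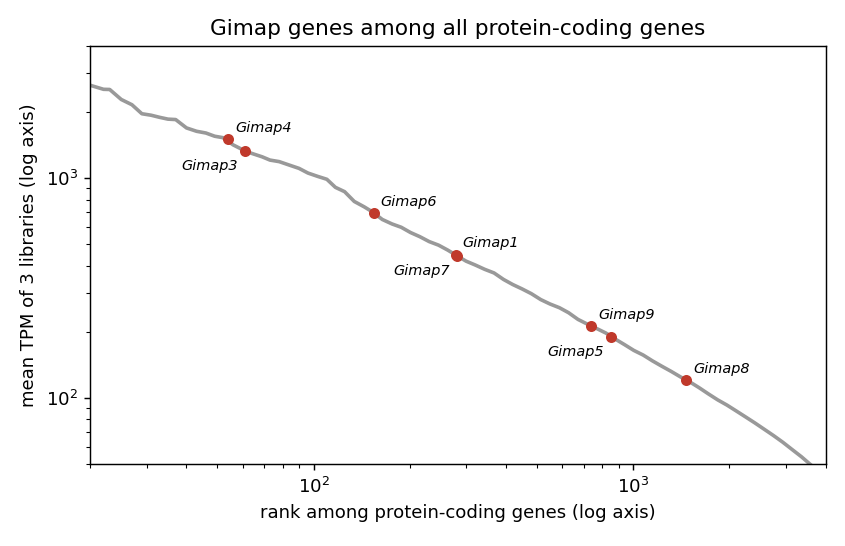
Mean TPM of protein-coding genes (grey line) against their rank, both on log axes, with the 8 Gimap genes as red points. The members run from rank 54 for Gimap4 to rank 1465 for Gimap8.

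Most steps in this order were larger than the technical spread. A step counted as exceeding the spread if the log2 ratio of TPM kept its sign in all 3 libraries and was on average over 2 SD from 0. By this rule 6 of 7 pairs of neighbours and 27 of all 28 pairs differed. The pairs were ordered by the same TPM, and the rule was applied to no pairs of other genes. These counts are therefore no trait particular to the family. An exact sign-flip test over 3 libraries cannot go below p = 0.25, so none is given. The exception was Gimap1 over Gimap7, at 0.02 ± 0.07 on the log2 scale of TPM (SD, n = 3). The widest steps between neighbours were Gimap7 over Gimap9, at 1.06 ± 0.07, and Gimap3 over Gimap6, at 0.94 ± 0.03. In counts per kilobase of the smaller gene table, with lengths from the larger table, the first was 0.05 ± 0.03, within the spread. The second turned to -0.56 ± 0.02 there. Gimap4 over Gimap3, at 0.18 ± 0.02, and Gimap9 over Gimap5, at 0.16 ± 0.01, were narrow. From end to end, Gimap4 exceeded Gimap8 by 12.5-fold in TPM, by 6.66-fold without correction for length, by 18.6-fold in TPM of the longest reading frames and by 1.55-fold in counts per kilobase of the smaller table. Errors common to all libraries, such as a wrong transcript length, are outside this SD. Without correction for length, Gimap4 over Gimap3 became -0.23 and Gimap5 over Gimap8 -0.66 in log2 of counts scaled to library size.

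The closest relatives in sequence were far apart in TPM. Gimap3 exceeded Gimap5 by 2.80, 2.79 and 2.84 on the log2 scale of TPM in libraries 1, 2 and 3, or 7.01-fold. The size depends on the scale: it was 12.3-fold in counts without correction for length and 15.9-fold in TPM of the longest reading frames. In the smaller gene table of each library, in which abundant genes level off, the log2 ratio of counts per kilobase was -0.05 ± 0.06, within the spread (SD, n = 3). The effective lengths used for it came from the larger table that holds the TPM, on average 2039 bases for Gimap3 and 1158 for Gimap5. Before division by length the smaller table had 1617, 1617 and 1626 counts for Gimap3. It had 945, 926 and 985 for Gimap5. The coding sequences of these genes share a longest identical run of 140 bases, longer than a read of this series, so reads from within it fit both genes. It is printed for that reason. It starts at coding base 175 of Gimap3 (chr6:48765681-48765820, minus strand) and 187 of Gimap5 (chr6:48752684-48752823, plus strand).
Gimap3 and Gimap5 shared run: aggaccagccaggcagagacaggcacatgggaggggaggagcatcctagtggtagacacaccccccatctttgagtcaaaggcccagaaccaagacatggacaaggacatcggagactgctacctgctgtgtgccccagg
Of all distinct 50-base words in the annotated transcripts, 190 were common to both genes, out of 2528 in Gimap3 and 4195 in Gimap5. The estimates of read assignment deposited with the counts were narrow. The SD of the estimated count was at most 0.462% of the count for Gimap5 and 0.0361% for Gimap3. Gimap7 and Gimap9, the second pair in coding identity, differed by 2.09-fold in TPM.

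Upstream of their start sites, matches to a searched motif were found for Gimap5 and not for Gimap3. Shown are the 250 bases before the RefSeq start of each (GRCm38.p6, 5′ to 3′ on the strand of the gene), with any match to a searched motif in capitals.
Gimap3 upstream (chr6:48770852-48771101, minus strand): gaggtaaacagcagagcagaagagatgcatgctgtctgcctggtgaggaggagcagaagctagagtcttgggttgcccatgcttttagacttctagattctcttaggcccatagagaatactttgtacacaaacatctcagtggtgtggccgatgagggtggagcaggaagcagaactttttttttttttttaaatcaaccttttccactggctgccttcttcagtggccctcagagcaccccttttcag
Gimap5 upstream (chr6:48745947-48746196, plus strand): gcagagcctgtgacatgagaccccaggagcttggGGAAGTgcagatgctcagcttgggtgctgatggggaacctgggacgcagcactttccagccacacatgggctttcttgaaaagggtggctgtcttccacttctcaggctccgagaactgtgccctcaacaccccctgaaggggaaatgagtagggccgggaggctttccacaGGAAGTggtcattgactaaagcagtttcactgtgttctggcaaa
The Gimap5 window held 2 matches to the ETS core GGAAGT. The Gimap3 window held none of the 7 motifs searched on both strands. RefSeq gives 9 upstream windows for the 8 genes and 32851 in all. The RUNX core TGTGGT was found in 3 of the 9 (Gimap1, Gimap4 and Gimap7), against 14.0% of all windows. The ETS core was found in 2 (Gimap5 and Gimap6), against 19.7%. The SP and KLF motif GGGCGG occurred in 2 (Gimap7 and Gimap9), against 32.7%. The STAT motif TTCNNNGAA occurred in 2 (Gimap6 and Gimap8), against 7.02%. The TATA box TATAAA occurred in 1 (Gimap6), against 12.4%. The E-box CAGCTG was in none of the 9, against 13.0% of all windows. The cyclic AMP element TGACGTCA was in none either, against 1.55%. The windows of the members held 1 to 8 CG dinucleotides, with Gimap9 highest, against a median of 6 over all windows. These matches describe letters only and say nothing of binding.

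The 8 genes lie side by side on chromosome 6, in 124 kb, with 6 on the plus and 2 on the minus strand. In order of position they run Gimap8, Gimap9, Gimap4, Gimap6, Gimap7, Gimap1, Gimap5 and Gimap3, with gaps of 2.40 to 15.3 kb. The most abundant genes, Gimap4 and Gimap3, were number 3 and number 8 along the cluster. The other genes of the interval and of 100 kb on each side lay below the members. The highest of them still exceeded the 29.2 TPM of the median detected protein-coding gene. Of 5 other annotated genes between the outermost members, 4 were detected, the highest being Gimap1os, an antisense RNA of Gimap1, at 38.1 ± 1.12 TPM. Gm28053 had 25.997 ± 3.22 TPM, the lincRNAs Gm44226 and 4833403J16Rik 9.37 ± 2.22 and 6.81 ± 1.502, and the pseudogene Gm44262 was at 0. Of 15 genes in the flanks, 6 were detected and none exceeded the 36.0 ± 4.34 TPM of Lrrc61. Both sets mix gene types, and among all protein-coding genes 47.3% were detected. Rarres2, which overlaps Lrrc61, was not detected in TPM but had 164, 163 and 208 counts in the smaller gene table. Tmem176b and Tmem176a, the protein-coding genes nearest beyond Gimap3, had 8.69 ± 0.149 and 5.43 ± 0.207 TPM. Zfp775, Repin1 and AI854703, beyond Gimap8, had 6.58 ± 1.23, 3.33 ± 0.907 and 2.03 ± 0.508 TPM. All 8 Gimap genes exceeded every other gene of the region in every library.

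**Figure D3:**
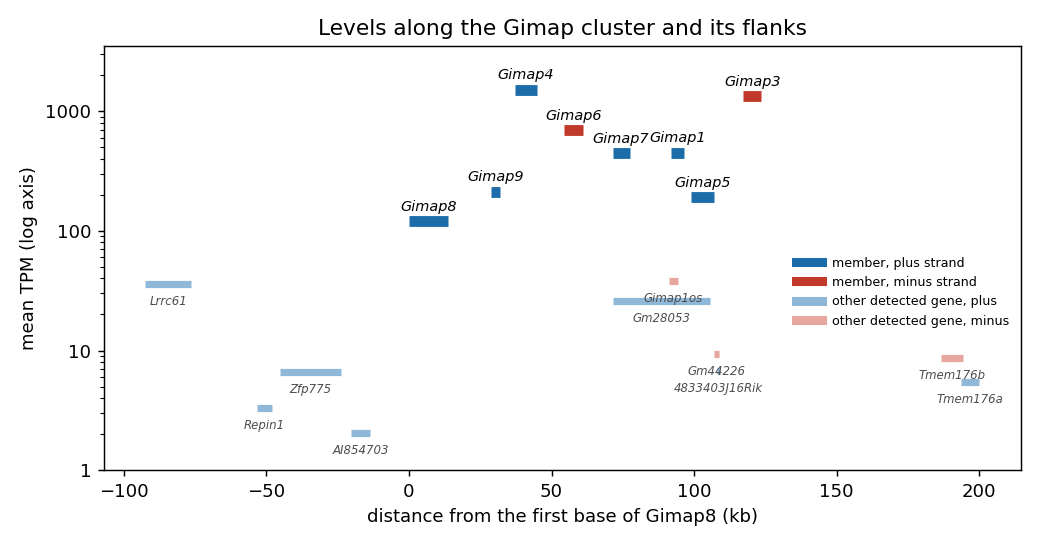
Mean TPM (log axis) of the Gimap genes (dark bars, blue for plus and red for minus strand) and of other detected genes (pale bars) against distance in kb from the first base of Gimap8. Each bar spans its gene, and all Gimap genes lie above 100 TPM while no other gene reaches 40 TPM.

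Sequence shared with other annotated genes affected some members and not others. Gimap4, Gimap8 and Gimap9 shared no 50-base word with transcripts of any other gene, on either strand. Gimap6 shared 0.170% of its words, with Was and Cd63, and Gimap7 1.39%, all with Gm28053. Gimap3 shared 8.15% and Gimap5 6.84%, mainly with each other. Gm28053 is an annotated gene that spans Gimap7, Gimap1 and much of Gimap5, and 30.4% of its words were shared with other genes. Of its TPM in the larger table, 67.2% ± 7.99 fell on a retained intron transcript, and it had 2, 1 and 1 counts in the smaller table. Gimap1 shared 35.5% of its words, 1011 of 3116 with Gimap1os. No source here states if strand was used in counting, and without it reads from within these shared words cannot be assigned to Gimap1 or Gimap1os by sequence. The deposited SD of the estimated count of Gimap1 was at most 0.253% of the count, and that of Gimap1os at most 32.5 counts. Gimap1os had 1217, 1367 and 1528 expected counts against 12215, 12374 and 13772 for Gimap1.

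The transcript tables showed 3 patterns within the family. Here a share is the part of a gene's summed TPM that fell on an annotated transcript. Gimap7 and Gimap6 were almost entirely of one form, Gimap7-201 holding 95.3% ± 1.27 and Gimap6-201 91.7% ± 0.684 (SD, n = 3). Gimap6-202, at 7.17% ± 0.577, codes 97 codons with no P-loop, against 305 codons in Gimap6-201. Gimap3 was split between Gimap3-202 (67.6% ± 1.05) and Gimap3-201 (32.4% ± 1.05), which code the same 301 codons, so all of its TPM lay on the full reading frame.

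Gimap4 and Gimap9 had a main form and shorter coding forms. Gimap4-202, with 328 codons, held 74.0% ± 1.59, and Gimap4-204, whose frame of 58 codons still includes the P-loop, held 15.8% ± 1.29. Gimap4-206, annotated as subject to nonsense-mediated decay, held 6.07% ± 0.938. Gimap9-201 held 72.1% ± 1.95 and Gimap9-202, whose coding part is annotated without a start codon, 27.9% ± 1.95.

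Gimap1, Gimap5 and Gimap8 were the most divided. For Gimap1, Gimap1-205 (45.6% ± 2.86) and Gimap1-201 (22.0% ± 4.42) code the same 300 codons, and the retained intron forms Gimap1-204 and Gimap1-203 held 18.8% ± 1.23 and 6.07% ± 0.359. For Gimap5, the single coding transcript Gimap5-201 held 45.7%, 43.7% and 42.9% in libraries 1, 2 and 3. The rest lay mainly on the processed transcripts Gimap5-202 (29.6% ± 2.87) and Gimap5-203 (23.4% ± 3.56), which are 464 and 606 bases long against 1953 for Gimap5-201. Counted by expected counts, which give long transcripts more weight, Gimap5-201 held 72.5% ± 1.18.

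In Gimap8 the forms differ in the number of P-loops. Gimap8-201 codes 349 codons with 1 P-loop and held 50.05% ± 3.67 of the TPM. Gimap8-202 (38.3% ± 8.76) and Gimap8-203 (11.7% ± 5.92) each code 688 codons with 3 P-loops. Gimap8-202 and Gimap8-203 varied between libraries more than any other named transcript of the family: Gimap8-202 held 45.6%, 40.7% and 28.6% and Gimap8-203 8.51%, 8.01% and 18.5%. Their sum was steadier, at 54.1%, 48.7% and 47.1%.

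**Figure D4:**
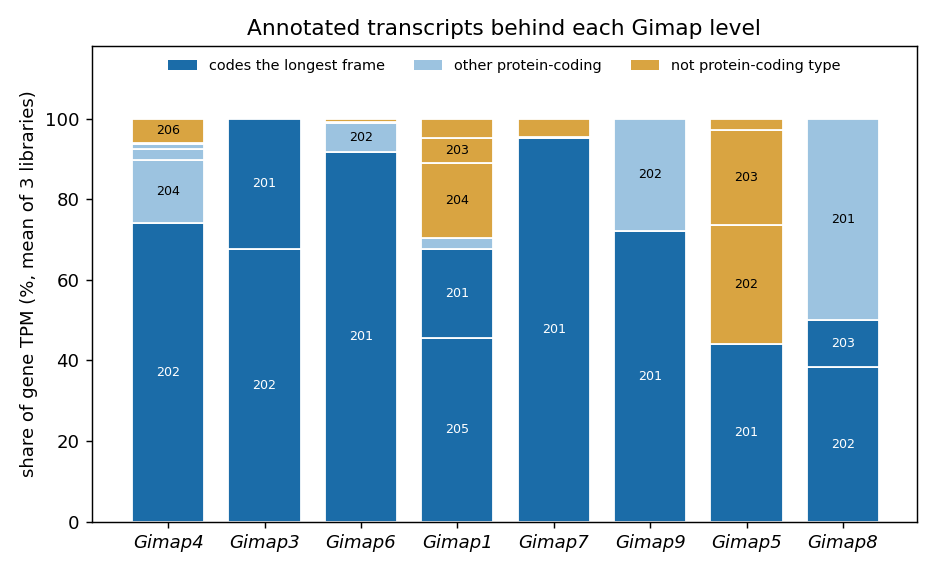
Share of each gene's TPM by annotated transcript, as the mean of 3 libraries, with dark blue for transcripts that code the longest frame, pale blue for other coding transcripts and ochre for other types; numbers are transcript suffixes. Gimap3 is wholly dark blue, while Gimap5 and Gimap8 are below or near 50%.

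The order of the members shifted when only the longest reading frame was counted. On that basis, an alternative chosen after seeing the data, Gimap3 led with 1336 ± 33.6 TPM, ahead of Gimap4 with 1118 ± 13.5. Gimap7 (423 ± 12.4) lay above Gimap1 (304 ± 17.6), while Gimap5 (84.1 ± 4.80) stayed above Gimap8 (60.3 ± 5.69). The log2 ratio of Gimap4 to Gimap3 was then -0.26 ± 0.04 and that of Gimap1 to Gimap7 -0.48 ± 0.11 (SD, n = 3). With all transcripts of the protein-coding type, Gimap5 lay below Gimap8, at -0.52 on the log2 scale of TPM.

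Each library also has a smaller gene table of whole-number counts on GENCODE M4, in which abundant genes level off. All 8 members were in it, with 926 to 2786 counts. Gimap8 had the most, with 2714, 2684 and 2786, and Gimap5 the fewest, with 945, 926 and 985. Gimap4 had 2241, 2247 and 2241 counts there against 45404, 47440 and 54310 expected counts. The tables were counted separately, so their ratio is no share of reads. It was 4.60% ± 0.422 for Gimap4, 2.83% ± 0.251 for Gimap3 and 37.2% ± 2.66 for Gimap8 (SD, n = 3). Genes of both tables in the same range of expected counts had a median ratio of 24.5%, with quartiles of 12.3% and 38.8%. Set beside genes within 1.25-fold of its own expected count, Gimap5 had 20.4% against a median of 35.5%, and Gimap4 had 4.57% against 3.79%. On the same basis Gimap3 had 2.81% against 3.53%, and Gimap8 had 37.1% against 28.1%. Per kilobase of effective length in the larger table, counts of this table ran from 1464 ± 12.2 for Gimap4 to 795 ± 3.16 for Gimap3. Gimap3 was thus lowest on that scale, and Gimap5 in counts not divided by length.

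**Figure D5:**
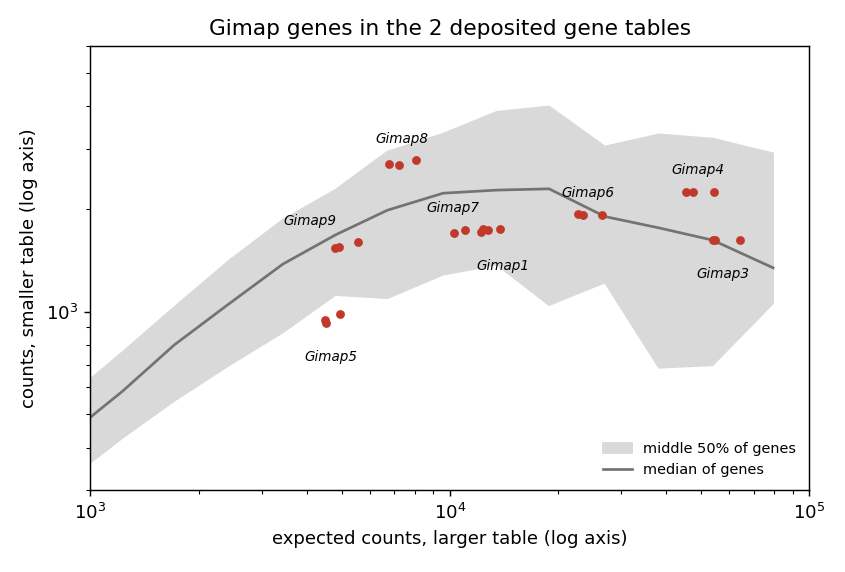
Counts of the smaller gene table against expected counts of the larger one, both on log axes, with 3 red points per Gimap gene for the libraries and the median and middle 50% of all genes in grey. Gimap5 lies below the middle 50% of genes of like abundance, Gimap8 high within it, and the other members within it.

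Between libraries the members varied little. A chi-square test of equal shares on rounded expected counts, with Benjamini-Hochberg adjustment over 15945 genes, called 4 of 8 members, where it called 65.8% of all genes tested and 80.9% of the 1615 genes whose mean count lay in the range of the members. The calls were Gimap3 (adjusted p = 9.99e-05), Gimap1 (adjusted p = 0.000873), Gimap7 (adjusted p = 0.00101) and Gimap5 (adjusted p = 0.00591). The differences were small: the highest library exceeded the lowest in share of counts by 1.02-fold for Gimap3 and by 1.07-fold for Gimap5, the widest of the 8. Gimap4, Gimap6, Gimap8 and Gimap9 were not called, with adjusted p of 0.325, 0.153, 0.212 and 0.607 in the chi-square test. With TMM or DESeq2 size factors 5 were called, Gimap4 being added, against 65.6% and 65.7% of all genes. Without library 1 only Gimap3 was called, against 48.6% of all genes. Without library 2 the calls were Gimap1, Gimap5 and Gimap7, against 41.1%, and without library 3 Gimap3 and Gimap7, against 45%. With no count filter and with a summed count of at least 300 the same test called 4 of 8, against 41.7% and 71.8%. The smaller table gave 2 calls, Gimap4 and Gimap6, against 33.5%. With the chi-square divided by the overdispersion of all genes (8.61), none of the 8 was called and none had an unadjusted p below 0.05, where 1.85% of all genes were called.

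The libraries held genes that mark T cells and regulatory T cells, while no list of activation markers was drawn up. All 7 regulatory T cell markers were detected, with Foxp3 lowest at 135 ± 2.65 TPM, and all 7 T cell markers as well. Gimap genes are also known from other lymphocytes and from endothelium, so markers of those cells were summed. The 8 endothelial markers summed to 1.10 to 1.94 TPM and none was detected, Tek being at 0 in every library. Of 6 B cell markers 5 were detected, and they summed to 43.7 to 56.2 TPM, led by Cd79b at 29.3 ± 3.95, with Pax5 at 0.0867 ± 0.0252. Of 4 NK cell markers 2 were detected, with a sum of 2.62 to 3.37 TPM, with Klra8 at 0, and the 2 CD8 T cell markers to 21.98 to 24.4. Of 7 macrophage markers 5 were detected, with a sum of 53.9 to 56.5 TPM, and all 4 erythroid markers, with a sum of 592 to 828, highest in library 1. None of 3 platelet markers was detected, with a sum of 0.830 to 1.12 TPM. None of 6 granulocyte markers was detected in all libraries, yet they summed to 20.8 TPM in library 1 against 0.660 and 2.08 in libraries 2 and 3. The Gimap sum exceeded each of these except the T cell markers, and the part of other cells in it was not tested. In such bulk samples, fewer cells of a type and less RNA per cell cannot be told apart.

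Genes linked to the functions of the family were present at a range of levels. Of 19 genes of the Bcl-2 survival pathway and its interleukin 7 input, 15 were detected, against 47.3% of all protein-coding genes. The median of the 19 was 37.3 TPM, against 0.808 over all protein-coding genes and 29.2 over the detected ones. Mcl1, which protects lymphocytes from apoptosis, led at 460 ± 24.7 TPM, followed by the pore-forming Bax (254 ± 4.94) and Bcl2a1b (175 ± 11.5). Bcl2 itself stood at 90.4 ± 3.42. Bcl2a1a (0.697 ± 0.480), Bcl2l2 (0.457 ± 0.268), Bok (0.0800 ± 0.139) and Hrk (0.0733 ± 0.0777) had means below 1 TPM. The Bcl2a1 genes are near-identical copies, so their division is uncertain. Mcl1 lay just above Gimap1 in mean level, and only Gimap4, Gimap3 and Gimap6 exceeded every gene of the list.

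All 9 autophagy genes were detected, against 47.3% of all protein-coding genes, and their median was 42.4 TPM. Gabarap (385 ± 7.87), the cargo receptor gene Sqstm1 (320 ± 10.2) and Map1lc3b (300.4 ± 4.38) led, and Map1lc3a was lowest at 11.1 ± 1.33. Gabarapl2, which encodes the partner described for GIMAP6, had 268 ± 6.81 TPM against 696 for Gimap6. All 9 genes of the signalling list drawn up around Gimap5 were detected as well, with a median of 83.5 TPM. Akt1 (165 ± 9.73), Ctnnb1 (143 ± 6.82) and Myc (93.8 ± 6.46) led it, Gsk3b, the kinase gene reported to be restrained by Gimap5, had 47.4 ± 2.29, and Foxo4 was lowest at 2.09 ± 0.234.

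Other GTPases of immune cells gave a scale for the family. All 24 listed genes were detected, against 47.3% of all protein-coding genes. Their median was 146 TPM, against 447 for the Gimap genes. Rac2, a regulator of the actin skeleton in blood cells, stood above every Gimap gene at 2717 ± 19.8 TPM. Igtp (597 ± 10.6), an interferon-inducible GTPase, and the septin gene Sept1 (478 ± 6.51) followed, both below Gimap6 and above Gimap1. Mx2 was lowest at 2.80 ± 0.870. No test was made of these lists, which were drawn up for their relation to the family.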

How the data were processed

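Members and lists were chosen with earlier results of these data known. Per the file headers, the authors deposited expected counts per gene and transcript, estimated on mm10 with GENCODE M21 per the deposited notes. The authors also deposited TPM, which they scaled from those counts by effective length and library. A score column deposited by the authors holds the posterior SD of the estimated count. The smaller table of counts deposited by the authors uses mm10 with GENCODE M4. Its counts per kilobase were made here with effective lengths of the larger table. For aligner, quantification program and strand use: not given in the sources used here. Length exceeded effective length by 49 bases in the phiX row, as 50-base reads give.

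Totals were 31445344, 32612609 and 37259281 expected counts, and 8827129, 8758421 and 9555924 counts in the smaller tables. Rows without an annotated gene (0.125% to 0.182% of counts) were left out. Nothing says that the libraries came from separate cells, so p-values measure technical spread, and read counts without molecular identifiers are not independent molecules.

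Expected counts were rounded for the chi-square test (2 degrees of freedom, summed count from 30, adjusted p below 0.05), which was tested on simulated data. The simulated counts held counting noise only, so they cannot show how the test behaves at the overdispersion of these libraries. No amino acid table was used: coding sequences come from GENCODE M21 transcripts and upstream windows from RefSeq (GRCm38.p6), which matched all 8 genes. Coding identity came from global alignment. Of each partner list the 3 highest, the lowest and those below 1 TPM are named (marker lists are given mainly by their sums), transcripts from 5% of their gene's TPM. Neighbours are the genes within 100 kb. Bcl2, Gsk3b, Gabarapl2, Foxp3, Cd79b, Pax5, Tek and Klra8 were singled out after their values were seen. Sept2 levels sum the 2 annotated genes of that symbol. Alternatives were other scalings (TMM of edgeR 4.0.16, size factors of DESeq2 1.42.0), filters, transcript sets, the smaller table and each library left out. R 4.3.3, Python 3.11.15, scipy 1.17.1, pandas 2.3.3 and Biopython 1.88 were used.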

Additional observations from a re-analysis of the deposited data

How the results depend on the processing

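All 8 members stayed detected from 0.1 and from 5 TPM and without each library. The leading transcript of all 8 was the same by expected counts and without each library. Pairs of neighbours past the spread numbered 6 or 7 of 7, and pairs in all 25 to 28 of 28, in every alternative run. No share over pairs of other genes was computed. Directions changed for some member pairs. With no length correction the log2 ratio of Gimap4 to Gimap3 was -0.23 and of Gimap5 to Gimap8 -0.66. With protein-coding transcripts only, Gimap1 to Gimap7 was -0.43 and Gimap5 to Gimap8 -0.52. With the longest frame only, Gimap4 to Gimap3 was -0.26 and Gimap1 to Gimap7 -0.48. In the smaller table per kilobase, Gimap3 to Gimap6 was -0.56, Gimap6 to Gimap1 -0.14, Gimap1 to Gimap7 -0.15, Gimap5 to Gimap8 -0.20 and Gimap3 to Gimap5 -0.0485, and Gimap7 to Gimap9 was within the spread at 0.05. The alternatives for Gimap3 to Gimap5 and for Gimap4 to Gimap8, and the longest-frame setting, were chosen after seeing the data. With 1 library left out, Gimap1 to Gimap7 ranged from -0.0193 to 0.0474, the lowest without library 1. The cause of these changes was not tested. The chi-square test called 4 members, 5 with either other scaling (Gimap4 added), 0 after division by overdispersion, 2 in the smaller table (Gimap4 and Gimap6), and 1 to 3 when a library was left out. Counts of detected genes in the 4 partner lists stayed within 1.5 times. No paired analysis was possible because the labels give 1 group.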
